A study of Callorhinchus milii with 12 samples.

Results

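Over-covered windows of the elephant shark genome are described here: 2 kb stretches of a scaffold in which each called cytosine was read far more often than is usual in these libraries. They were chosen by measured coverage, on scaffolds kept by their measured methylation. CG calls of the deep-sequenced female and male liver were added, and a window was taken when it held at least 10 called cytosine positions with a mean of 7 or more calls per called position. Scaffolds with an overall methylation level under 20% were left out. The rule picked 705 of the 420223 windows with enough positions (0.168%), out of 426584 windows with any call. Coverage is therefore a property of the choice and not a result. Methylation entered through the scaffolds left out, which held a further 196 windows past the coverage limit, and CG content through the minimum of called positions. With those scaffolds kept, the pooled level of the windows past the limit was 29.2% instead of the 38.1% given below. Strand entered through the division by called positions, which favours windows whose sites were called on a single cytosine. The balance between livers was not a criterion, but calls were added, so a window raised in a single liver could pass. Position within a scaffold was not used.

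The elephant shark, Callorhinchus milii, is a cartilaginous fish, and the study asked how methylation is laid out in a vertebrate that branched off early. Whole-genome bisulfite sequencing (WGBS) was applied to 12 libraries of liver, pancreas and spleen from both sexes, of which the 2 used here, the first female and the first male liver, were sequenced deeply. Both animals were adults, and no treatment is given for either. Each sex has 1 deep library, so no result below has a test, a replicate error or a P value, and a difference between livers is a difference between 2 libraries.

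In bisulfite sequencing, unmethylated cytosines are converted and read as thymine while methylated cytosines stay, so every read gives a methylated or an unmethylated call at each CG it crosses. Vertebrate genomes are methylated at most CGs, apart from CG-rich stretches at many promoters, and transposable elements usually carry methylation as well. Where an assembly holds a single sequence for several near-identical genomic copies, reads of all copies are placed on that sequence, and its methylation level is then an average over copies. Tandem arrays such as ribosomal RNA genes and satellites are known for this. Coverage can also be raised by the chemistry, the random priming or the alignment. Neither a sequence nor a repeat annotation of this assembly was used, so it was not tested whether these windows are repeats, and they are called over-covered throughout. For the same reason no base sequence is shown.

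CG calls numbered 30080951 on 12682448 reads for the female and 38128530 on 15880802 reads for the male, all from the same flow cell and its 2 lanes. The median window had 3.00 calls per called position with both livers added, and the middle 90% of windows lay between 1.96 and 4.49. The limit of 7 stood at 2.33 times the median, beyond the value of 5.39 that 99% of windows did not pass. Over-covered windows had a median of 8.53 calls per position with quartiles of 7.55 and 11.1. At least 10 calls per position were reached by 225 of them, 20 by 55 and 50 by 3. The highest mean was 96.2, which is 32.1 times the median window. Just inside the limit, 104 windows at 7 to under 7.25 calls per position had a mean methylation of 52.5%. Just outside it, 127 windows at 6.75 to under 7 had a mean of 58.0%. Together the 705 windows span 1410 kb on 226 of 325 scaffolds, and they held 0.752% of all calls and 1.60% of the unmethylated calls in the windows considered.

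The most covered windows show what such a place looks like in the calls. The window at NW_006890155.1:2830001-2832000 (assembly 6.1.3) held 193 CG sites, with 17378 female and 19667 male calls. It was almost free of methylation, at 0.996% (female) and 1.26% (male). The window next to it, starting at 2832001, had a mean of 45.1 calls per position, with 1421 female and 1423 male calls and a level of 3.23%. In that neighbour high coverage was confined to part of the window. The 2 of 13 bins of 100 bp at 7 or more calls per position were methylated at 1.19%, and the remaining bins, with 82 calls, at 72.0%. The over-read bins of this neighbour were thus unmethylated and its other bins methylated, the latter on few calls. Towards the outer edge of the first window this was not so. The thinly covered step 775 bp before its centre was at 0% of 83 calls.

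The second highest window, NW_006890087.1:2252001-2254000, had 65.5 calls per position over 147 CG sites. It received 8818 female and 10379 male calls and was likewise unmethylated, at 0.760% and 1.36%. The third, NW_006890113.1:1024001-1026000, was of another kind. It held 26 CG sites with 56.6 calls per position and was methylated at 53.2% in the female (1280 calls) and 57.1% in the male (1493 calls). The fourth, NW_006890149.1:3094001-3096000, had 47.0 calls per position on 16 CG sites and female and male levels of 33.4% and 36.9%. Extreme coverage was thus found both at CG-dense unmethylated windows and at windows of intermediate level with fewer CG sites.

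**Figure D1:**
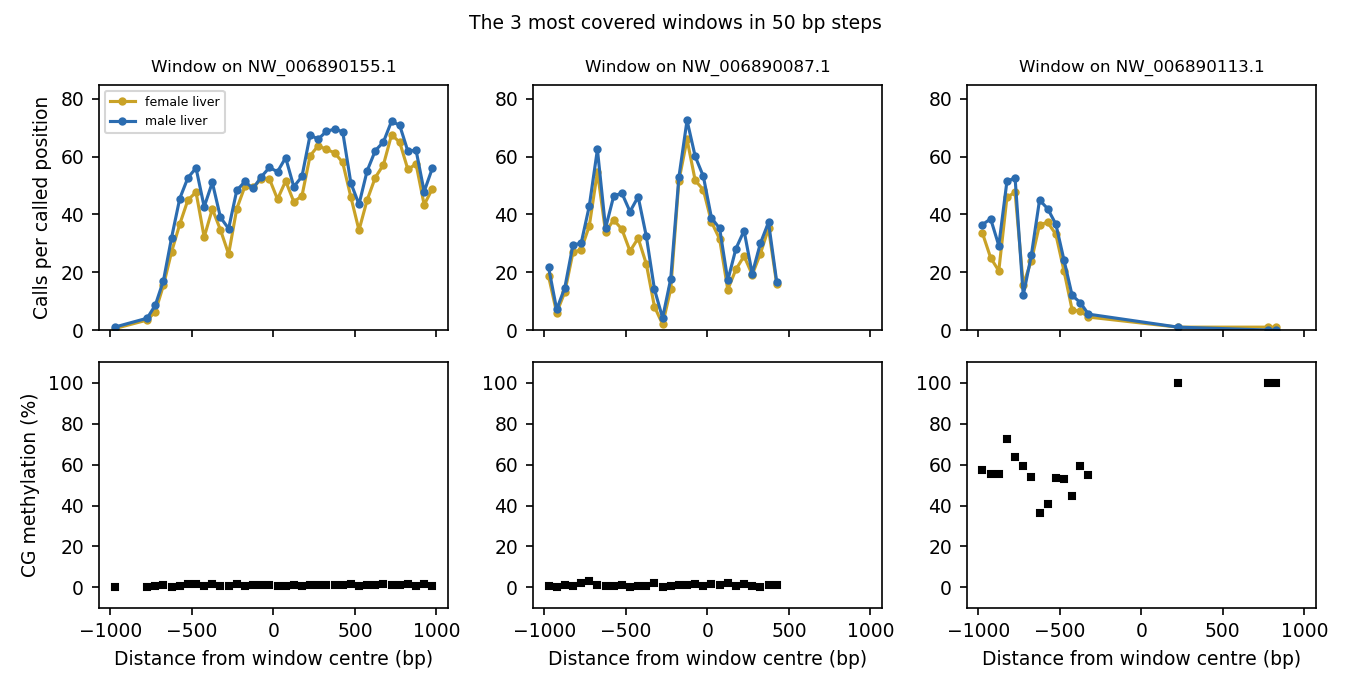
Calls per called position in each liver (upper row) and CG methylation with both livers added (lower row) along the 3 most covered windows, in steps of 50 bp from the window centre. Female and male coverage rise and fall together; the first and second window are near 0% methylation along their length, and in the third, with 26 CG sites, the well covered steps lie at intermediate levels on one side of the window.

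Methylation of over-covered windows was lower than that of other windows. With all calls pooled the level was 38.1% (95% Wilson interval 38.0% to 38.3%, counting error only) against 71.1% in the other 419518 windows. Averaged over windows it was 48.1% ± 28.0 (SD, n = 705 windows) against 69.5% ± 19.0, a difference of -21.5 percentage points. For these windows, chosen on both livers, the difference was -21.2 points in female and -21.7 points in male calls. With windows chosen and measured in a single liver it was smaller, at -5.33 points for the female (3411 windows) and -6.98 points for the male (2215 windows). That choice was less strict and took more windows, so the sizes are not directly comparable. The upper normal range, 48651 windows with 4 to under 7 calls per position, had a mean level of 73.1%. Against it the difference of the 705 was -25.1 points. The pooled level leans on few windows: the 2 most covered held 11.0% of the calls in over-covered windows, and without them it was 42.7%.

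The spread was wider than the mean shows, with windows at every level. A level under 20% was found in 154 over-covered windows, which is 21.8% of them, beside 2.32% of all windows considered. A level of 80% or more was found in 103 (14.6%), beside 33.9% of all windows. The middle classes held 269 windows at 20% to under 60% (38.2%, against 23.6% of the other windows) and 179 at 60% to under 80% (25.4% against 40.2%). The lowest class was itself mostly unmethylated, since 105 of its 154 windows (68.2%) were below 10%. This was much as elsewhere: the share was 66.5% in other windows of that class and 72.0% in those at 4 to under 7 calls per position. Low and intermediate levels were thus more common than elsewhere and full methylation less common, without either end being absent.

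**Figure D2:**
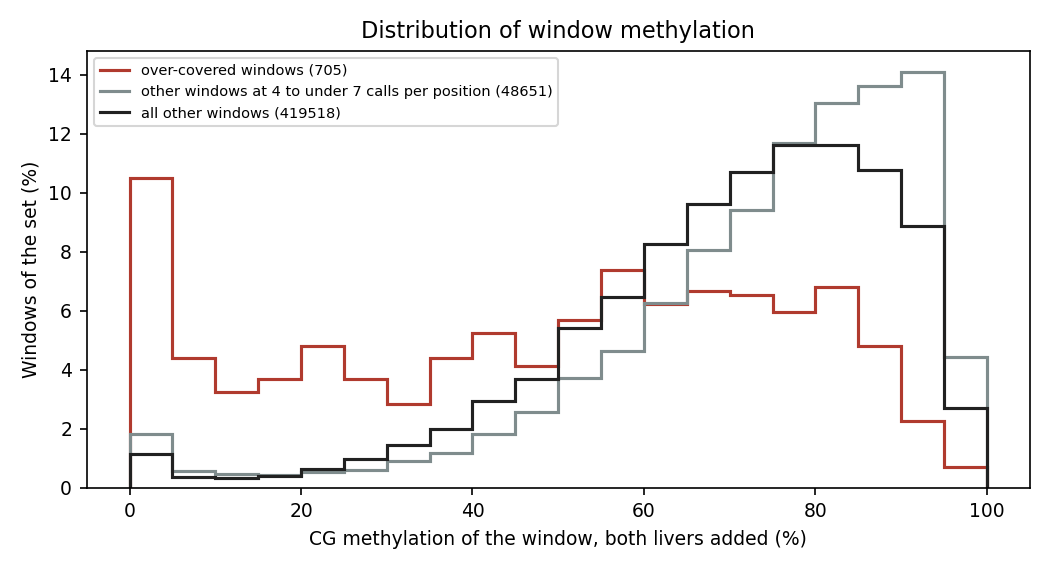
Share of windows (%) by CG methylation with both livers added, in steps of 5 points, for the 705 over-covered windows, the 48651 other windows at 4 to under 7 calls per position and all 419518 other windows. Over-covered windows have a peak below 5% and a broad spread over intermediate levels, whereas the other sets rise towards high methylation.

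Methylation followed coverage in a particular shape. Among ordinary windows it rose with calls per position, from 67.6% at 2 to under 3 to 73.6% ± 19.1 at 4 to under 5 (n = 40804 windows). It then fell, to 71.5% at 5 to under 6, 64.9% ± 26.7 at 6 to under 7 (n = 1045) and 53.2% ± 27.7 at 7 to under 8 (n = 280). Above that it was 49.3% at 8 to under 10, 45.9% at 10 to under 15, 38.7% at 15 to under 20 and 30.1% ± 26.8 in the 55 windows at 20 or more. The decline began below the limit of 7, so the limit marks a point on a slope and not a step. The mean level was higher in the male than in the female in each band.

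**Figure D3:**
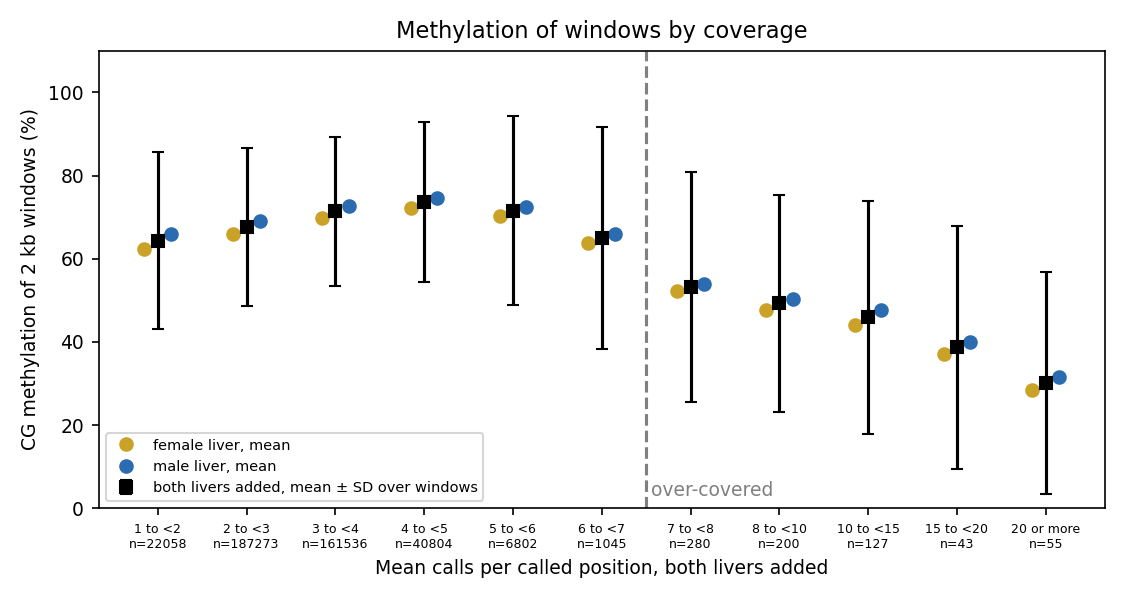
CG methylation of 2 kb windows by band of mean calls per called position. Squares give the mean and bars the SD over windows with both livers added, circles the mean in each liver, and n the number of windows; the mean is highest, at 73.6%, at 4 to under 5 calls and lowest, at 30.1%, at 20 or more.

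The most covered windows of the other classes illustrate the range. At 20% to under 60%, NW_006890179.1:104001-106000 had 44.3 calls per position on 17 CG sites, with 39.4% of 758 female and 49.9% of 748 male calls methylated. At 60% to under 80%, NW_006890112.1:966001-968000 led with 30.3 calls per position and levels of 69.6% (519 female calls) and 71.5% (632 male calls). Behind it came NW_006890347.1:36001-38000, at 23.1 calls per position and 77.6% with both livers added, and NW_006890221.1:1-2000, the first window of its scaffold, at 20.8 and 60.4%. At 80% or more, NW_006890112.1:988001-990000 had 29.2 calls per position, with 78.2% of 776 female and 84.4% of 891 male calls methylated. The 2 windows named on this scaffold begin 22 kb apart and differ in class but not in kind, both being methylated and read about 10 times as often as the median window. NW_006890298.1:406001-408000, with 7 CG sites, stood at 23.6 calls per position and 90.4%. NW_006890292.1:400001-402000, with 67 CG sites, stood at 21.5 and 91.3%.

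Single CG sites showed the same mixture at higher precision. A CG site is here a called position, joined with its neighbour 1 bp away as the cytosine of the opposite strand where both were called. Of 35919 CG sites with 20 or more calls, 7318 (20.4%) lay in over-covered windows and 4476 (12.5%) on the 5 scaffolds left out. Such sites were 26.5% of the sites in over-covered windows and 0.179% of the sites in other windows. Calls per position were the criterion, so this contrast is largely set by the choice. Among those in over-covered windows, 40.1% were methylated under 20%, 40.7% at 20% to under 80% and 19.1% at 80% or more. In other windows the shares were 17.6%, 31.5% and 51.0%, among sites read unusually often for those windows and so not typical of them. In the windows at 20% to under 60%, 70.9% of these sites were themselves at 20% to under 80%. A further 25.1% of them were under 20% and 4.02% at 80% or more. These shares cover the 2561 sites with 20 or more calls in that class and not its less often read sites. The most often read site in over-covered windows had 303 calls and a level of 1.32%.

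Reads crossing several CGs gave a further view. Of 77231 reads with at least 3 CG calls in over-covered windows, 43.9% were fully unmethylated, 22.9% fully methylated and 33.2% mixed (95% Wilson interval 32.9% to 33.6%). In other windows 11.4% were fully unmethylated, 51.1% fully methylated and 37.4% mixed. Within classes of level the gap went either way. The mixed shares were 10.6% in over-covered and 10.9% in other windows under 20%, and 46.3% and 48.8% at 20% to under 60%. At 80% or more the mixed share was 37.3% in over-covered windows against 27.6% in others, and 28.2% against 23.2% when only reads with exactly 3 calls were counted. Within this class over-covered windows stood lower, at a pooled level of 85.5% against 87.8%, and what this adds to the gap was not tested. Over all classes, reads with exactly 3 calls were mixed in 33.3% and 33.5%. Reads carrying both kinds of call were thus common in intermediate windows whether or not these were over-covered.

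The number of CG sites did not set over-covered windows apart in one direction. They had a median of 34 CG sites per 2 kb (quartiles 22 and 50) against 28 (20 and 40) in all other windows, a difference of 6 sites. Against windows at 4 to under 7 calls per position, which had a median of 41 (30 and 54), the difference was -7 sites. Sites are counted only where called, so a shallow window shows fewer of them than it holds, and the second comparison is between windows of less unequal depth. At least 100 sites were found in 14 over-covered windows (1.99%), against 0.614% of all other windows and 2.24% of those at 4 to under 7. The lower methylation was present at each density. With under 20 sites the mean level was 49.9% ± 27.8 (n = 145) against 65.2%, with 20 to under 60 sites 49.7% ± 26.9 (n = 437) against 71.0%, and with 60 or more 40.1% ± 31.0 (n = 123) against 70.9%.

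Coverage was uneven along the window. Cut into bins of 100 bp, the median over-covered window had calls in 13 bins, of which 5 reached 7 calls per position, and these deep bins held 80.5% of its calls. The most covered bin had a median of 21 calls per position and a maximum of 138. Bins were called deep at the limit used for the choice, which fixes part of these values. Bins of other windows are not given, so no comparison of unevenness is made. The median bin of a window had a median of 6 (quartiles 4 and 8.1), against 3 calls per position in the median window of all considered. It was under 7 in 430 over-covered windows, so in the rest coverage was high over much of the window. In 18 windows every bin was deep. In the 612 windows with at least 20 calls in their shallow bins, deep bins were methylated at 47.0% and shallow bins of the same windows at 54.3%, a mean difference of -7.39 points ± 24.8 (SD, n = 612). Deep bins were lower in 359 of these windows and higher in 252. They were lower by 20 points or more in 124 and higher by as much in 43. In windows under 20% the deep bins stood at 5.61% and the shallow bins at 21.7%, whereas in windows of 80% or more they stood at 87.1% and 83.0%. The classes were formed with the same calls, so these last values describe the classes only.

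Over-covered windows often lay next to each other. Another over-covered window adjoined 249 of the 705 (35.3%, 95% Wilson interval 31.9% to 38.9%), while 0.220% of the other windows had such a neighbour. The interval takes windows as independent, which adjoining windows are not: the 249 lay in 106 runs. It is therefore too narrow. Of the windows 2 kb away from an over-covered one, 23.4% were over-covered too, and the share fell to 9.47% at 4 kb, 4.35% at 10 kb, 2.51% at 20 kb and 1.66% at 50 kb. At 100 kb it was 0.185% (2 of 1079 windows) and at 200 kb 0.397% (4 of 1007), beside the 0.168% of all windows. A stretch of raised coverage that crosses a window border makes neighbours by itself, so the share at 2 kb includes cut stretches. The windows formed 562 runs, of which 456 were a single window, 83 a pair and 23 longer. Windows in runs of 2 or more were methylated at 39.9% ± 28.2 (n = 249) and single windows at 52.5% ± 26.9 (n = 456), and their median coverage was 10.0 and 8.06 calls per position.

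The longest run held 7 windows at NW_006890054.1:18494001-18508000, the last 14 kb of a scaffold whose last called position is 18507825. Its level was 25.5% in the female (595 calls) and 20.7% in the male (763 calls), with 8.99% to 43.5% in single windows. Its 139 CG sites were read on 142 positions, so that nearly every site was called on a single strand. The run of 5 windows at NW_006890224.1:1104001-1114000 was even along its length, with 57.5% to 60.5% per window, and lay lower in the female (53.0% of 1975 calls) than in the male (63.4% of 2719 calls). All 5 of its windows were lower in the female. The run of 5 at NW_006890189.1:1562001-1572000 had 34.3% of 493 female and 45.9% of 567 male calls methylated.

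There were 6 runs of 4 windows, and the 2 with most calls, which are named here, were also the least methylated. The levels of the remaining 4 lay between 15.5% and 22.4%. At NW_006890255.1:334001-342000 the mean was 17.3 calls per position over 234 CG sites, with a level of 1.19% in the female (3349 calls) and 1.85% in the male (3791 calls), and no window above 3.70%. At NW_006890244.1:968001-976000 the mean was 8.54 calls per position over 203 CG sites, and the level was 5.01% in the female (1278 calls) and 4.07% in the male (1746 calls). The second reaches the end of its scaffold, where the last called position is 974729. Low methylation was thus found over several adjoining over-covered windows as well as in single ones.

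Outside a run, coverage and methylation both moved towards the values of other windows. Windows next to a run are under 7 calls per position by the choice itself, which fixes part of the fall in coverage. Median coverage went from 8.53 calls per position inside to 3.62 at 2 kb, still above the upper quartile of 3.52 of all windows considered, and to 3.28 at 4 kb. Mean methylation went from 48.1% inside to 61.6% ± 25.3 at 2 kb, 65.4% at 4 kb, 66.7% at 10 kb and 68.4% ± 21.7 at 20 kb. Around runs under 20% it was 39.0% ± 31.7 at 2 kb, 51.6% at 4 kb and 62.1% at 20 kb. Around runs of 80% or more it was 79.1% at 2 kb and 79.8% at 20 kb, so surroundings and runs differed in the same order. Over all runs together, flanking windows were thus lower in methylation and somewhat higher in coverage than the median window, most so at 2 kb. Flanks of runs of 80% or more were not lower in methylation.

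**Figure D4:**
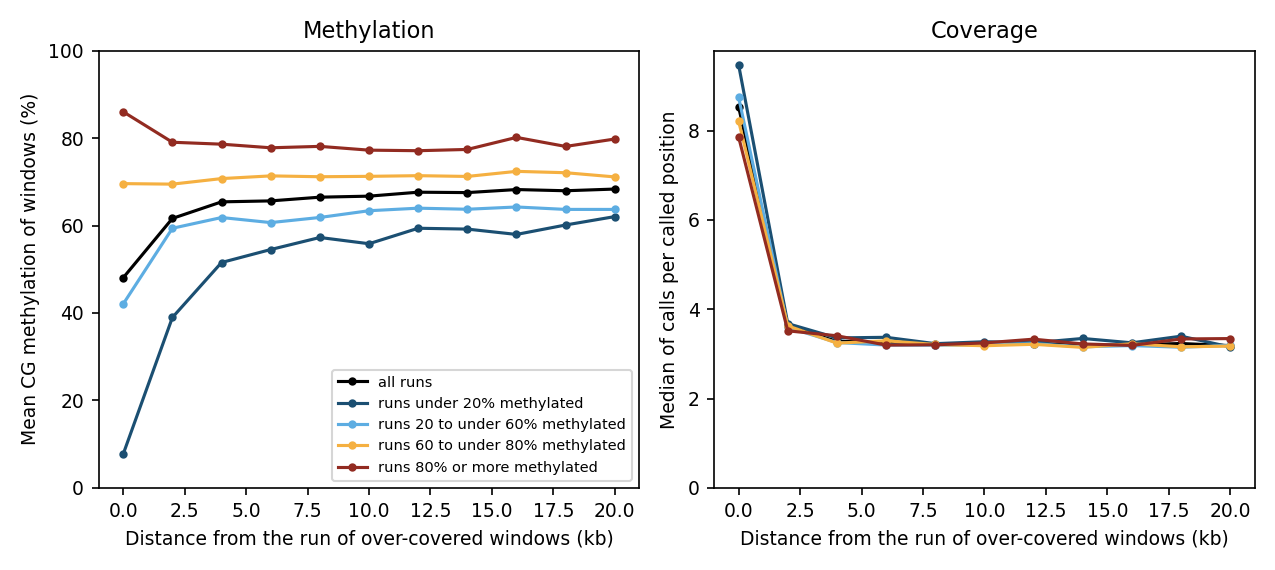
Mean CG methylation (left) and median calls per called position (right) of windows by distance from a run of over-covered windows, for all runs and for runs by their own methylation, with both livers added. Coverage is 3.62 at 2 kb for all runs together, and methylation climbs from 48.1% to 68.4% over 20 kb.

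Scaffold ends were rich in over-covered windows. Within 10 kb of the first or last position of a scaffold, taken up to its last called position, lay 150 of the 705 (21.3%) and 0.750% of the other windows. Of all windows this close to an end, 4.55% were over-covered, on 81 scaffolds. Those near ends had a mean level of 37.3% ± 24.9 (n = 150) and those farther away 51.0% ± 28.1 (n = 555). Other windows near ends had 70.4%, so the low level was not shared by ends at large. Near ends 62.0% had an over-covered neighbour, and farther away 28.1%. Of the windows adjoining over-covered ones, 8.86% had under 10 called positions, against 1.49% next to other windows. By scaffold size, over-covered windows were 0.572% of the windows on the 139 scaffolds under 1 Mb, 0.205% on those of 1 to under 3 Mb and 0.113% on the 100 scaffolds of 3 Mb or more.

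Single scaffolds contributed little of the whole. The 10 scaffolds with the most over-covered windows held 17.0% of them and 9.12% of all windows considered, and 76 scaffolds had exactly 1. NW_006890241.1 had the most, 20 of its 444 windows (4.50%), and a low overall level of 41.3%. NW_006890054.1, which carries the longest run, had 17 of 9042 (0.188%) at an overall level of 67.9%, and NW_006890090.1 had 13 of 2777 (0.468%) at 69.6%. The highest share was on NW_006890349.1, with 7 of 152 windows (4.61%). All 7 lay in its first 26 kb and all were in the class under 20%, while the scaffold as a whole stood at 46.4%. The 5 scaffolds left out for a level under 20% held a further 196 windows past the coverage limit among 857, of which 132 were on NW_006890273.1.

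Coverage was raised in both livers. Relative to the median window of its own library, 693 of the 705 windows had at least 1.5 times the coverage in both livers and 647 at least 2 times. The female was below 1.5 times in 8 and the male in 4. Both livers entered the choice, which favours such an outcome. When windows were chosen in one liver alone at the corresponding limit, the other liver gave a reading not used for the choice. Both libraries shared the flow cell, the preparation and the alignment, so the reading is not independent of these. The 3411 windows chosen in the female had a median of 1.76 times the normal coverage in the male, and the 2215 chosen in the male 1.83 times in the female. Both livers picked 959 of them, where 420223 windows were considered with both livers added. The 3411 and the 2215 windows were methylated at 64.6% and 61.4% in the liver not used for the choice, against 70.8% and 67.8% over all windows. This gap is smaller than in the 705, but under a less strict choice.

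**Figure D5:**
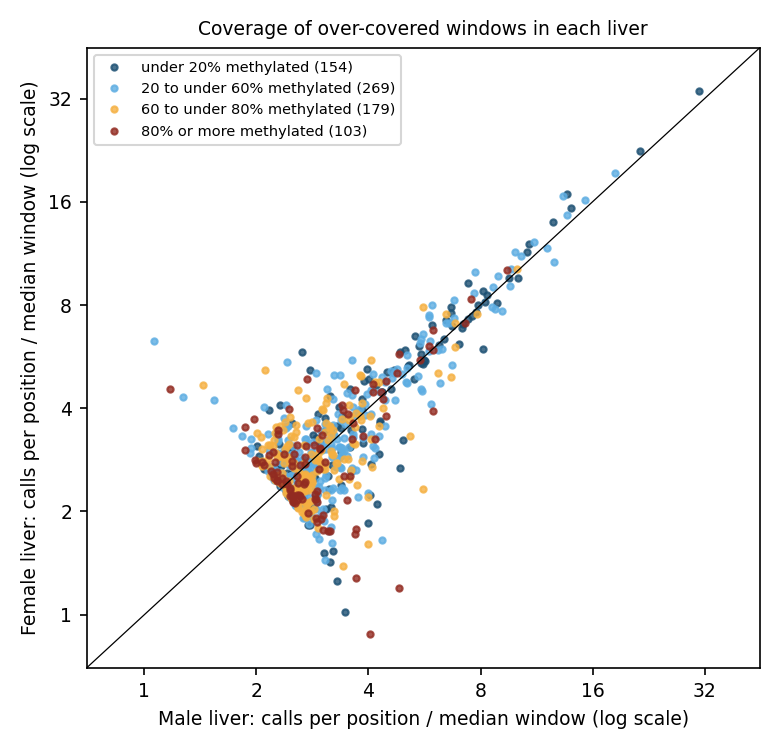
Coverage of each of the 705 over-covered windows in the male and the female liver, as calls per called position over the median window of the same library, on logarithmic axes, coloured by methylation class. Points follow the diagonal at high coverage, and a few windows are raised in 1 liver only; the empty lower left corner is set by the choice of windows.

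The female to male ratio of calls had nearly the same median as in all other windows together. On the log2 scale its median was -0.29 in over-covered and -0.31 in other windows, a difference of 0.017, beside -0.34 for the library totals. Against windows at 4 to under 7 calls per position the difference was 0.093, and with a limit of 6 calls, or with windows of 1 kb, it changed sign, to -0.051 and -0.057. The median also moved with coverage, from -0.26 at 2 to under 3 calls per position to -0.40 at 5 to under 6. It was -0.39 at 7 to under 8, -0.28 at 8 to under 10, -0.21 at 10 to under 15, -0.30 at 15 to under 20 and -0.22 at 20 or more. The difference thus depends on the windows compared, and no direction is read from it. The spread was wider, which is partly set by the choice, since a window raised in a single liver could pass through that liver alone. Among windows with at least 200 calls, the ratio had an SD of 0.43 in 602 over-covered windows and 0.34 in 112550 others. Its medians there were -0.29 and -0.38. The spread expected from the number of reads was the smaller for over-covered windows, 0.24 against 0.29, since they held a median of 190.5 reads against 103.

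Relative to the median ratio of all windows with 200 calls, 59 over-covered windows (9.80%) lay more than 0.5 higher in the female, beside 6.24% of all windows. More than 0.5 lower were 40 (6.64%), beside 6.94%. Beyond 1, or a change of 2 times, were 8 higher and 11 lower in the female (1.33% and 1.83%), against 0.196% and 0.395% of other windows. Windows raised in a single liver could enter by the choice, so these shares are not free of it. By coverage, the SD was 0.46 at 7 to under 10 calls per position, 0.39 at 10 to under 20 and 0.16 in the 55 windows at 20 or more. The spread expected from read counts was 0.25, 0.21 and 0.17 in these bands, so the observed SD was above it in the first and second band and near it in the third. Duplicate removal, taken up below, limits the reads kept in both libraries, and its part in the narrow spread of the third band was not tested. Between the lanes of 1 library the SD of the log2 ratio over the 602 windows was 0.59 (female) and 0.58 (male), against 0.43 between livers. At 20 or more calls it was 0.67 and 0.70. In other windows with 200 calls it was 0.51 and 0.45, likewise larger than the 0.34 between livers. A lane holds only part of the reads of a library, and the share of lane 1 rose with coverage, as given below. What either adds to the spread between lanes was not tested.

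The strongest imbalance towards the female was at NW_006890228.1:1012001-1014000, with 278 female and 58 male calls. Coverage there was 6.28 times the median for the female and 1.06 times for the male, at levels of 27.0% and 19.0%. NW_006890057.1:444001-446000 followed with 195 and 62 calls at 94.4% and 80.6%. NW_006890241.1:994001-996000, at the end of its scaffold, had 174 and 63 calls at 52.9% and 74.6%. In these the male coverage was near normal, 1.06 to 1.27 times its median.

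Towards the male, NW_006890122.1:1242001-1244000 had 33 female and 187 male calls, at 78.8% and 87.2%. NW_006890147.1:352001-354000 had 161 and 798 calls, with a level of 93.2% for both livers added. NW_006890174.1:2104001-2106000 had 200 and 838 calls and was unmethylated in both livers, at 2.00% and 0.597%. Of the 19 windows beyond 1 in either direction, 5 lay on this last scaffold between 2068001 and 2114000, 4 lower and 1 higher in the female, a cluster that was picked out after its values were seen. Copy number in the animals, sex and library cannot be told apart with 1 library per sex.

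Methylation differed between livers about as much in over-covered windows as in all others, which hold fewer calls. The SD of the difference was larger than in windows at 4 to under 7 calls per position. Of those windows 16.0% lay at 20% to under 60%, against 38.2% of over-covered ones, and differences were largest in that class. In the 674 with at least 50 calls in each liver, the female level was lower by a mean of 2.39 points ± 8.49 (SD). In 223055 other windows it was lower by 2.40 points ± 8.82, and in 45139 at 4 to under 7 by 2.16 points ± 7.68. The correlation of female and male levels across windows was r = 0.955 in over-covered and r = 0.894 in other windows, given as a description of windows that share their libraries. Levels of over-covered windows spread more widely, which by itself raises r. A level at least 10 points higher in the female was found in 34 (5.04%), beside 6.72% of all windows and 4.53% of those at 4 to under 7. One at least 10 points lower was found in 108 (16.0%), beside 17.4% and 13.5%. By class the mean difference was -0.546 points under 20%, -3.86 points at 20% to under 60%, -2.04 points at 60% to under 80% and -1.88 points at 80% or more. In other windows of these classes it was -0.273, -3.53, -2.91 and -1.51 points, likewise largest at 20% to under 60%. At CG sites with 10 or more calls in each liver, 5770 of them in over-covered windows, the difference had an SD of 13.6 points, where counting gives 11.7. At 9930 such sites in other windows the SD was 16.0 points, where counting gives 13.7. An SD above counting was thus not particular to over-covered windows.

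The calls of the 2 lanes were unevenly divided in over-covered windows. Lane 1 supplied 54.3% of the female and 54.8% of the male calls, and 54.5% of those in other windows. In over-covered windows it supplied 66.8%. The median share was 55.5% at 6 to under 7 calls per position, 58.8% at 7 to under 10, 63.3% at 10 to under 20 and 73.5% at 20 or more. In the most covered window it was 15176 of 17378 female and 17621 of 19667 male calls. The imbalance was thus alike in both libraries and grew with coverage. Duplicate reads had been removed before deposit, which limits how many reads can be kept at a start position, and its part in this imbalance was not tested. Coverage of the highest windows is therefore a lower limit of what was sequenced. The mean level over windows was 48.0% in lane 1 and 48.4% in lane 2 (704 windows with 25 or more calls in each), against 70.5% and 70.4% in other windows. With calls pooled, over-covered windows stood at 35.5% in lane 1 and 43.4% in lane 2, against 71.2% and 71.0%.

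Over-covered windows were also more often called on a single strand, which is partly set by the choice. Coverage was divided by called positions, and a site called on a single cytosine adds fewer positions than a site called on both. Such windows could therefore pass the limit with fewer reads. The median share of CG sites called on both cytosines was 52.3% in over-covered windows, 55.0% in windows at 4 to under 7 calls per position and 50.0% in all other windows. Below 25% were 186 of the 705 (26.4%), against 6.20% of windows at 4 to under 7 and 8.08% of all others. Below 10% were 97 (13.8%), against 1.04% and 1.22%. The longest run is of this kind, whereas in the most covered window 99.5% of sites were called on both. Windows below 25% had a mean level of 52.8% ± 27.1 (n = 186) and the rest 46.4% ± 28.2 (n = 519), so lower methylation was present in both. Its relation to priming or alignment was not tested.

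Leaving the 705 windows out moved the level over all windows considered from 70.9% to 71.1%.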

How the data were processed

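For the 2 deep-sequenced livers the authors deposited 1 call per cytosine and read in CG context, methylated or unmethylated (a call code with no further unit, counted here). Per the study's methods and the submitters' processing notes, libraries were made by post-bisulfite adapter tagging and sequenced single-end. Reads were trimmed (Trim Galore 0.4.0, with 10 bp removed from the 5′ end), aligned with Bismark 0.14.3 to scaffolds of assembly 6.1.3 above 277 kb, and stripped of duplicates. The mapping reports of the 10 low-coverage libraries hold totals only and were not used.

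Calls were added per position and per adjoining 2 kb window. The call minimum was 200 for ratios, which used calls + 1, and 50 in each liver for level differences. Lanes were read from the read names. Scaffold length was taken as the last called position. Wilson intervals at 95% take the calls, reads or windows counted as independent and cover counting error only. The code was tested on simulated call files. Scripts ran on Python 3.11.15 with pandas 2.3.3, NumPy 2.4.6 and Matplotlib 3.10.9.

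The windows, comparisons and alternatives were chosen with earlier results of these data known. Windows named are the 5 longest runs (ties by number of calls), the 5 most covered, the 3 most covered per methylation class, the 3 highest and 3 lowest ratios, and the 3 scaffolds with most windows and the one with the highest share; any other is said to have been chosen after its values were seen. No annotation was used.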

Additional observations from a re-analysis of the deposited data

How the results depend on the processing

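The 6 quantities were recomputed under other limits, window sizes, comparison sets and single livers; a value is called moved when it left the counting interval or the spread of the reported one, or, for a number of windows, by more than 1.5 times. The methylation difference stayed below 0 under each alternative run. With a mean of 6 calls per position there were 1750 windows, pooled at 49.1%, a methylation difference of -11.4 points, 10 more CG sites, 23.0% with a neighbour and a ratio difference of -0.051. With a mean of 10 there were 225, at 30.2%, -28.8 points, 3 more sites and 0.076. In 1 kb windows there were 2514, at 48.8%, -9.45 points, 22.9% with a neighbour and -0.057. In 5 kb windows there were 212, at 34.1%, -26.8 points, 3.2 more sites per 2 kb, 17.9% and 0.063. The female liver alone gave 3411 windows, at 53.3%, -5.33 points and 15.4%, and the male alone 2215, at 55.3%, -6.98 points and 16.8%. The single-liver limits were less strict than the limit on both livers. With the scaffolds under 20% kept, the pooled level was 29.2%, the difference -30.6 points, the CG site difference 11 and the share with a neighbour 45.7%. Against windows at 4 to under 7 calls per position the methylation difference was -25.1 points, the CG site difference -7 and the ratio difference 0.093. Taking the same number of windows by calls per CG site gave 40.1% and 13 more sites. The pooled level was 38.0% with 20 called positions per window, 37.9% with windows shifted by 1 kb and 39.3% without the scaffold with most over-covered windows.

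Chosen after seeing the data, windows farther than 10 kb from a scaffold end gave 38.4%, -18.5 points and 27.9% with a neighbour, and windows with 25% or more of CG sites called on both cytosines gave 36.6% and 9 more sites. No alternative but a limit of 6 and 1 kb windows turned the sign of the ratio difference, and none but the set at 4 to under 7 that of the CG site difference. No paired analysis was possible because each sex has 1 deep library and no result comes from a test. Depth limits single windows: at the lowest coverage taken, a window can rest on fewer than 100 calls, and the number of CG sites seen rises with depth.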
